A study of Mus musculus with 30 samples.

Results

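The Gtl2-DMR amplicon covers the differentially methylated region at the start of Meg3, a maternally expressed long non-coding RNA gene that is also called Gtl2. Its members are 15 CpGs at positions 33 to 339 of the amplicon reference. A position counted as an amplicon CpG when 10% or more of a library's reads had a call there, in 1 library at the least. The series holds 79 such CpGs over 4 amplicon references, and each of the 15 was called in each of the 6 libraries on the Gtl2-DMR reference. Choosing the CpGs used the presence of calls and not their methylation.

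In the Dlk1-Dio3 imprinted domain the paternal copy of the intergenic control region, the IG-DMR, is methylated in sperm, and the Gtl2-DMR takes up methylation on the paternal copy later, after fertilisation. The maternal copy normally stays unmethylated at both places, and Meg3 is transcribed from it. Zfp57, a zinc finger protein, recognises methylated DNA at imprinted regions and helps to keep it methylated in the early embryo. Gzf1 is another protein with zinc fingers.

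Bisulfite treatment turns unmethylated cytosine into a base read as T and leaves methylated cytosine as C, so that each read reports the state of single CpGs along 1 molecule. It does not separate 5-methylcytosine from 5-hydroxymethylcytosine. Wild-type and Gzf1 knockout DNA was amplified from 3 sources, namely V6.5 cells (a mouse embryonic stem cell line, mESC), the trunk of E10.5 embryos (midgestation) and adult tail. Each of the 6 groups had 1 library. The labels give no other allele or agent for these groups, no age of the adult mice, no parental genotype, and no number of clones, embryos or mice behind a library. In 1 tail library the title gives both genotypes. It is called here the tail library labelled Gzf1 knockout, after its genotype label and library name. The calls do not measure expression, so genotypes and tissues rest on the labels.

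The depth was low. The wild-type libraries held 60 reads in mESC, 64 in trunk and 160 in tail, and the Gzf1 knockout libraries 119, 69 and 123. The number of calls per CpG ran from 16 to 155 in the wild-type libraries and from 30 to 120 in the knockout libraries. PCR copies of 1 molecule could not be told from separate molecules, since no molecular identifiers were used, and every interval and p-value below covers counting error only. With 1 library per group, the tests compare libraries and not conditions. The mESC libraries carry 2 different codes in their read names, so code and genotype cannot be told apart there. What the code stands for was not established. Within trunk and within tail both libraries share 1 code. The 6 libraries carry 4 codes, none shared between sources, so code and source cannot be told apart either.

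The calls are numbered along the amplicon and not along a chromosome. The spacing of the CpGs placed the amplicon at the Meg3 start in the RefSeq promoter table (GRCm38.p6). All 13 amplicon CpGs that fall inside the Meg3 window of 300 bases coincided with a CpG of that window on the plus strand, and the window holds no other CpG. Of 32851 promoter windows searched on both strands, no other matched more than 9, and those with 9 also held at least 26 CpGs that the amplicon lacks. The window is shown because every result below lies in it or just beyond its end. Capitals mark the CpGs of the amplicon, from CpG 33 to CpG 296.

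Meg3 window, chr12:109540746-109541045, plus strand: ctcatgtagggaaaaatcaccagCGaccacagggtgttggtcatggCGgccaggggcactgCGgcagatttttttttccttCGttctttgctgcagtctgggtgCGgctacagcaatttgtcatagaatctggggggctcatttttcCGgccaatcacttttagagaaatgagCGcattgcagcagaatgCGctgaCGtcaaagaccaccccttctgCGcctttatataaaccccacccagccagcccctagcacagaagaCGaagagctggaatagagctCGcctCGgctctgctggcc

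The annotated Meg3 gene runs from 109540996 to 109571729 on chromosome 12, and its start falls at position 260 of the amplicon. The first 10 CpGs, from CpG 33 (227 bases upstream) to CpG 227 (33 bases upstream), therefore lie in the promoter. CpG 271 lies 11 bases into the gene, followed by CpG 291 and CpG 296. At the same offset CpG 334 and CpG 339 would lie beyond the window, 339 at 79 bases into the gene, and no sequence was at hand for them.

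The window was searched for 4 short motifs on both strands. The Zfp57 motif TGCCGC was found on the minus strand at CpG 71, and 11.6% of the promoter windows hold it. The other motifs were chosen after the sequence had been read. The cAMP response element TGACGTCA holds CpG 206 and is present in 1.79% of windows. The TATA box TATAAA starts 25 bases upstream of the gene on the plus strand, overlaps a match on the minus strand, and is present in 13.6% of windows. The CCAAT box, present in 37.4%, starts 100 bases upstream and holds no CpG. A match is a description of letters and not of a bound factor. The motifs that contain a CpG of the amplicon are shown with 10 bases on either side, the motif in capitals as read on the plus strand.

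CpG 71, chr12:109540796-109540821: caggggcactGCGGCAgatttttttt
CpG 206, chr12:109540929-109540956: cagaatgcgcTGACGTCAaagaccaccc

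In the wild-type libraries the mean methylation of the Gtl2-DMR was 51.2% to 58.0% by value, and each of the 3 intervals held 50%. The mean level over the 15 CpGs was 54.7% in mESC (95% interval 43.5 to 65.9), 58.0% in trunk (47.7 to 68.3) and 51.2% in tail (44.6 to 57.7). Intervals of means come from the variance between reads. None of the 3 pairs of wild-type libraries differed beyond counting error. The widest gap, trunk minus tail, was 6.81 points (n = 64 and 160 reads, interval -5.40 to 19.0, two-sided normal p = 0.274, adjusted p = 0.672 over the 3 pairs).

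Wild-type reads were of 2 main kinds. Each read with 5 or more calls was put in 1 of 3 classes, mostly methylated with 70% or more of its calls methylated, mostly unmethylated with 30% or less, and between for the rest. In mESC 29 of 58 wild-type reads were mostly methylated and 24 mostly unmethylated, in trunk 33 and 21 of 58, and in tail 56 and 55 of 142. Reads of the class between made up 8.62% in mESC (Wilson interval 3.74 to 18.6), 6.90% in trunk (2.71 to 16.4) and 21.8% in tail (15.8 to 29.3). In the IG-CGI, the CpG island of the IG-DMR, the same class held 5.29%, 6.68% and 10.8% of wild-type reads. In the IG-TRE, another amplicon of the intergenic control region, it held 13.8% in mESC and 27.5% in trunk. The IG-CGI has 29 CpGs and the IG-TRE 7, against 15 here, and the class depends on the number of calls on a read. These shares of the class between were not tested against each other.

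In mESC the Gzf1 knockout library was more methylated at the Gtl2-DMR than the wild-type library. The library means were 54.7% in wild type and 79.4% in the knockout, a rise of 24.7 points (interval 12.4 to 37.0). By value each of the 15 CpGs was higher, by 14.6 to 34.7 points with a median of 24.8. Fisher's exact test called 11 of 15 CpGs higher (73.3%) and none lower, at a Benjamini-Hochberg adjusted p under 0.05 and a difference of at least 20 points. Over all amplicons of mESC, 86.3% of 51 CpGs were called higher and 0% lower, so the share at the Gtl2-DMR is not above the background. That background includes the 15 CpGs themselves and is not of equal depth. The other amplicons had 358 to 1917 reads per mESC library, against 60 and 119 here. Mostly methylated reads made up 82.9% of knockout reads (Wilson interval 74.8 to 88.8) against 50% in wild type (Fisher's exact test, adjusted p = 1.83e-05 over 6 class tests). Mostly unmethylated reads made up 9.91% against 41.4% (Fisher's exact test, adjusted p = 9.24e-06).

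The mESC result was weaker when repeated read patterns were counted once. This counting also merges separate molecules that share a pattern. In wild-type mESC 15 of 58 reads were methylated and 20 unmethylated at every call. A smaller difference after this step therefore does not tell PCR copies from separate uniform molecules. With each call pattern counted once per library, which left 37 wild-type and 74 knockout reads, the difference in means was 13.8 points with an interval of -0.00595 to 27.6, and no CpG was called. Mostly methylated reads then differed by 20.8 points and mostly unmethylated reads by -18.3 points (Fisher's exact test, adjusted p = 0.0586 and 0.0504), neither past the threshold.

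The knockout trunk had the most methylated Gtl2-DMR of the 6 libraries. Its mean was 88.8%, against 58.0% in wild type, a rise of 30.8 points (interval 19.7 to 41.9). Its 15 CpGs were higher than in wild type by 6.73 to 62.1 points, with a median of 32.2. Fisher's exact test with Benjamini-Hochberg adjustment called 11 of 15 CpGs higher (73.3%) and none lower, beside 88.2% and 0% of the 51 CpGs of all trunk amplicons. Of 67 knockout reads, 64 were mostly methylated, 2 were between and 1 was mostly unmethylated. In the knockout mostly methylated reads made up 95.5% against 56.9%, and mostly unmethylated reads 1.49% against 36.2% (Fisher's exact test, adjusted p = 5.28e-07 for each). Counting each pattern once gave a difference of 27.9 points in trunk, with 10 CpGs called.

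In adult tail the library labelled Gzf1 knockout had no gain that this depth could show. Its mean was 48.3% against 51.2% in wild type, a difference of -2.87 points (interval -12.8 to 7.09). Of the 15 CpGs, 4 were higher and 11 lower by value, within -10.1 to 3.93 points. Fisher's exact test called none of 15, with 0 at an unadjusted p under 0.05, beside 65.9% called higher and 0% lower among the 44 CpGs of both tail amplicons, all of them in the IG-CGI. Mostly methylated reads made up 37.6% (Wilson interval 29.1 to 47.0) against 39.4%, mostly unmethylated reads 42.2% against 38.7%, and reads between 20.2% against 21.8%. In simulated reads at the depth of these libraries, 93.7% of CpGs raised by 30 points were called, against 80.8% at the depth of mESC and 78.6% at that of trunk. The simulated reads were drawn as nearly fully methylated or nearly fully unmethylated, and their missing calls did not depend on methylation. The real reads differed on both points, so these shares do not give the power of the real test.

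**Figure D1:**
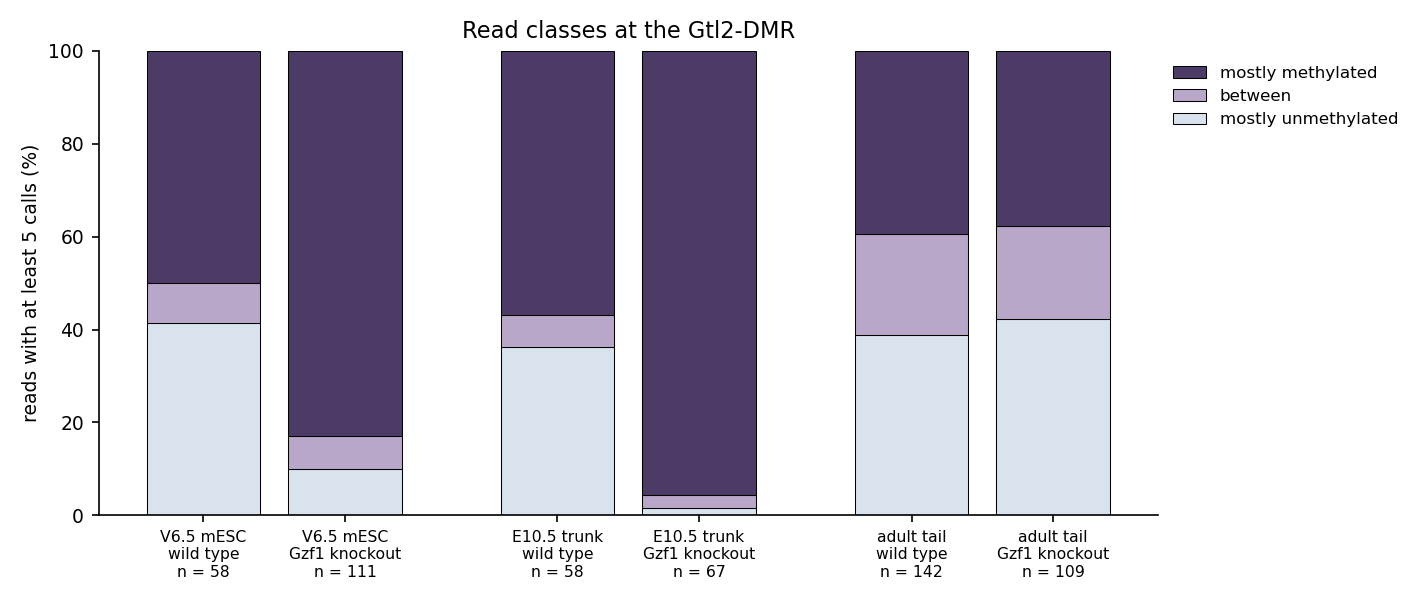
Share of reads, in percent, that were mostly methylated (at least 70% of calls), between, or mostly unmethylated (at most 30%) in each of the 6 Gtl2-DMR libraries, with the number of reads that had at least 5 calls. The knockout bars of mESC and trunk are filled mainly by mostly methylated reads, 82.9% and 95.5%, while the tail bars have nearly the same split.

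The change at the Gtl2-DMR differed between tail and the other sources, where the tail change rests on the library whose title gives both genotypes. The change in mESC exceeded that in tail by 27.6 points (n = 60 to 160 reads per library, interval 11.7 to 43.4, two-sided normal p = 0.000644, adjusted p = 0.000967 over 3 pairs of sources), and the change in trunk exceeded it by 33.7 points (18.7 to 48.6, adjusted p = 3.01e-05). With each pattern counted once, the first of these was 17.4 points (0.187 to 34.7). Between mESC and trunk the difference was -6.12 points (n = 60 to 119 reads per library, interval -22.7 to 10.48, adjusted p = 0.470), an interval wide enough to hold a sizeable gap in either direction.

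The nearest comparison for the Gtl2-DMR is with the other amplicons of the domain in the same sources, the IG-CGI and the IG-TRE, both of the intergenic control region. In mESC the IG-CGI gained 33.7 points and the IG-TRE 25.2, beside 24.7 at the Gtl2-DMR. In trunk the gains were 40.8 and 23.1 points, beside 30.8. None of these 4 differences between amplicons passed the test, and the largest, against the IG-CGI in trunk, was -10.0 points (n = 64 or more reads per library, interval -21.5 to 1.40, adjusted p = 0.214 over 5 amplicon comparisons). In tail the amplicons parted, but the Gtl2-DMR side rests on the library whose title gives both genotypes. The IG-CGI went from 51.9% to 80.6%, a gain of 28.7 points, and the change at the Gtl2-DMR was 31.6 points smaller (difference -31.6, n = 123 or more reads per library, interval -41.8 to -21.3, adjusted p = 7.86e-09).

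**Figure D2:**
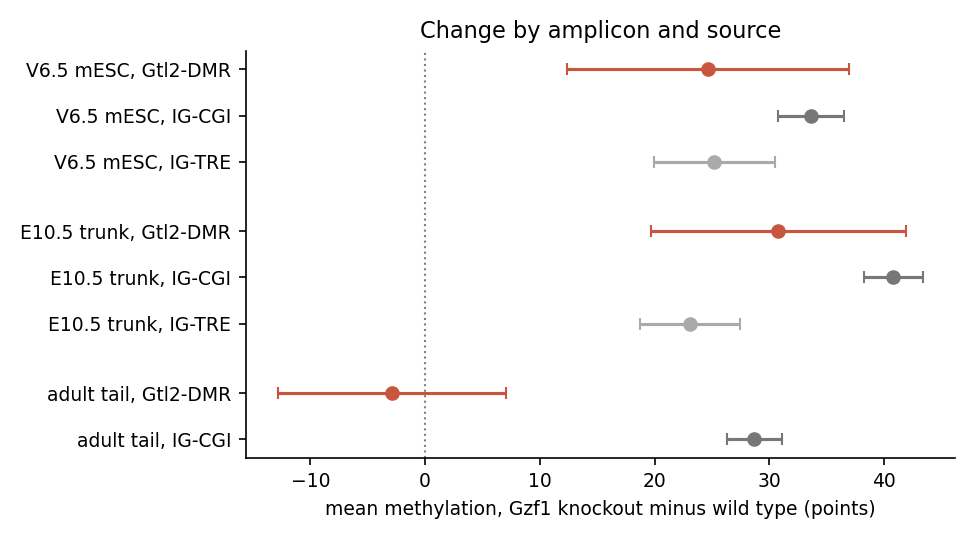
Difference in mean methylation, Gzf1 knockout minus wild type in points, for each amplicon and source, with 95% intervals from the variance between reads. The Gtl2-DMR of tail, at -2.87 points, is the only one of the 8 whose interval crosses 0. Its library labelled Gzf1 knockout has a title that gives both genotypes. The intervals of the Gtl2-DMR are wider than those of the other amplicons.

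By value every CpG was higher in the knockout of mESC and of trunk, and the calls formed a run. The run of 9 neighbouring CpGs from CpG 56 to CpG 227, all in the promoter, was called higher in both sources. Over all amplicons 86.3% of 51 CpGs were called higher in mESC and 88.2% in trunk. The share called in both sources over all amplicons was not computed. Neighbouring CpGs share reads and mostly have equal calls, so the run does not count as 9 separate results. The promoter CpGs also had more calls, 46 to 62 each in wild-type mESC and trunk against 16 to 49 for the CpGs of the gene. Promoter and gene were not tested against each other. CpG 33 and CpG 339, the outermost of the amplicon, were called in neither. CpG 271 and CpG 334 were called in trunk but not in mESC, and CpG 291 and CpG 296 in mESC but not in trunk. Whether single CpGs differed between the sources was not tested.

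CpG 33, the farthest upstream, was below its neighbour CpG 56 in each of the 6 libraries. It was methylated in 27 of 56 calls in wild-type mESC (48.2%) and 71 of 113 in the knockout (62.8%), in 28 of 61 (45.9%) and 38 of 64 (59.4%) in trunk, and in 58 of 153 (37.9%) and 47 of 120 (39.2%) in tail. It had the smallest rise of the 15 in mESC, 14.6 points (Fisher's exact test, adjusted p = 0.112), and was not called in trunk at 13.5 points (adjusted p = 0.177). CpG 56, 23 bases further in, was at 51.7% and 86.3% in mESC, 59.7% and 93.8% in trunk, and 51.0% and 49.2% in tail, wild type first.

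CpG 71, in the Zfp57 motif shown above, was at 55.2% in wild-type and 81.9% in knockout mESC, at 58.1% and 98.4% in trunk, and at 51.6% and 52.1% in tail. In the knockout trunk 63 of its 64 calls were methylated, the highest level of any CpG in the 6 libraries. CpG 91 was at 53.4% and 82.5% in mESC, 50% and 96.9% in trunk, and 49.7% and 45.2% in tail. CpG 114 was at 54.5% and 88.3%, 56.9% and 93.7%, and 46.1% and 48.6% in the same order.

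CpG 157 stood below both its neighbours in the knockout libraries of mESC and trunk. It was at 50.9% and 71.2% in mESC, 57.1% and 83.1% in trunk, and 50% and 49.1% in tail. CpG 183 was at 53.6% and 78.4%, 56.4% and 88.1%, and 53.9% and 49.5%. CpG 200 had the largest rise in mESC, from 29 of 57 calls (50.9%) to 95 of 111 (85.6%), by 34.7 points (Fisher's exact test, adjusted p = 1.46e-05). With each pattern counted once that rise was 23.5 points (Fisher's exact test, adjusted p = 0.113). In trunk CpG 200 was at 55.6% and 88.1%, and in tail at 50.7% and 45.8%.

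CpG 206 lies in the cAMP response element. It was at 61.7% in wild-type and 83.5% in knockout mESC, at 60% and 93.8% in trunk, and at 60.2% and 50.5% in tail. CpG 227, 33 bases before the gene, was at 63.0% and 86.4% in mESC and at 64.7% and 96.9% in trunk. In tail it had the largest difference, with 61.7% in wild type and 51.6% in the library labelled Gzf1 knockout (-10.1 points, unadjusted p = 0.160, adjusted p = 1 by Fisher's exact test).

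Within the gene the levels rested on fewer calls. CpG 271 was at 65.2% and 83.3% in mESC, 65.3% and 91.9% in trunk, and 58.9% and 50.5% in tail. CpG 291 had the highest wild-type level in mESC (66.7% of 33 calls) and in trunk (82.9% of 41 calls), and was at 92.0% and 89.7% in their knockouts. Its rise in trunk, 6.73 points, was the smallest there (Fisher's exact test, adjusted p = 0.375). In tail it was at 54.7% and 58.7%, the largest rise of that source.

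CpG 296, 5 bases past CpG 291, was at 45% and 75.6% in mESC, 63.2% and 77.8% in trunk, and 46.1% and 44.1% in tail. The largest rise of all was at CpG 334 in trunk, from 5 of 16 calls (31.3%) to 28 of 30 (93.3%), by 62.1 points (Fisher's exact test, adjusted p = 4.12e-05). The interval of that wild-type level, 14.2% to 55.6%, shows how little 16 calls fix it. CpG 334 was at 44.4% and 61.1% in mESC and at 40.9% and 37.5% in tail. CpG 339 was at 55.6% and 71.4%, 62.5% and 86.7%, and 53.8% and 52.6%.

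**Figure D3:**
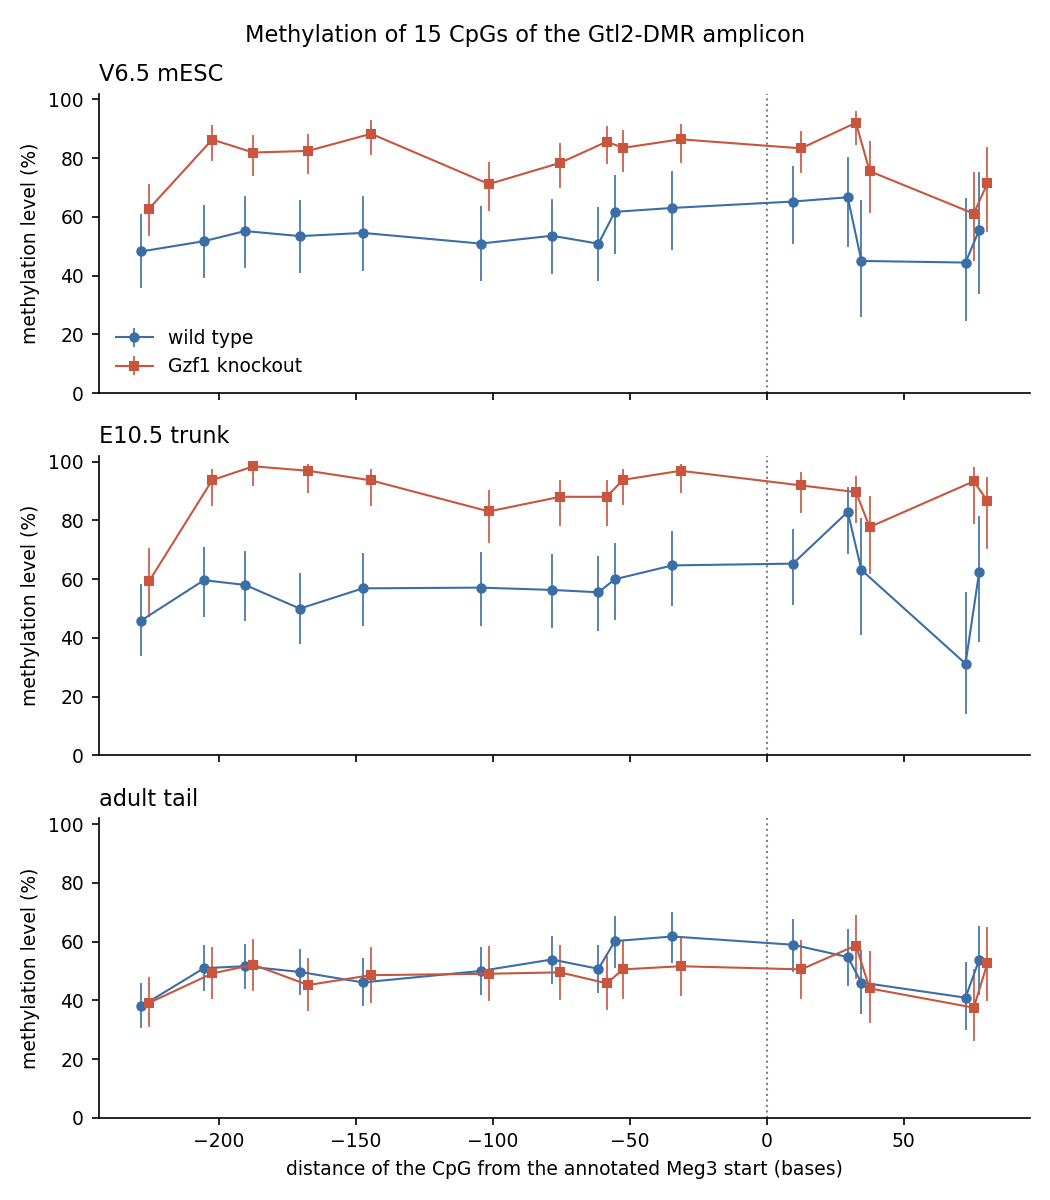
Methylation level in percent, with 95% Wilson intervals, of the 15 CpGs against their distance in bases from the annotated Meg3 start (dotted line), in wild-type (circles) and Gzf1 knockout (squares) libraries of the 3 sources. The knockout lies above wild type at all 15 CpGs in mESC and trunk, with CpG 33 lowest in the knockout trunk at 59.4%, and the lines of tail run together.

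The number of calls fell along the amplicon, and it fell differently on methylated and unmethylated reads. Reads began at CpG 33 in 92.8% to 97.6% of cases, but only 25% to 46.3% had a call at CpG 339. Reads were sorted by the methylation of their first 8 CpGs, from CpG 33 to CpG 200, with at least 5 calls there. Of the mostly unmethylated reads of wild-type mESC, 15 of 25 had a call at CpG 206, against 28 of 29 mostly methylated reads. In wild-type tail the numbers were 42 of 59 and 58 of 60, and in the tail library labelled Gzf1 knockout 36 of 49 and 43 of 44. Calls on unmethylated reads were thus lost between CpG 200 and CpG 206, which are 6 bases apart.

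Between CpG 291 and CpG 296, which are 5 bases apart, the loss was mainly on methylated reads. Of the 33 mostly methylated reads of wild-type trunk, 29 had a call at CpG 291 and 9 at CpG 296, while of the 22 mostly unmethylated reads 10 and 9 did. In knockout mESC 78 and 39 of 93 mostly methylated reads had these calls. Reads whose last call was at CpG 200 had 1 of 78 early calls methylated in wild-type mESC, 18.2% in wild-type tail and 46.9% in knockout mESC. Reads whose last call was at CpG 291 had 80.5% to 91.8% of early calls methylated in all 6 libraries.

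**Figure D4:**
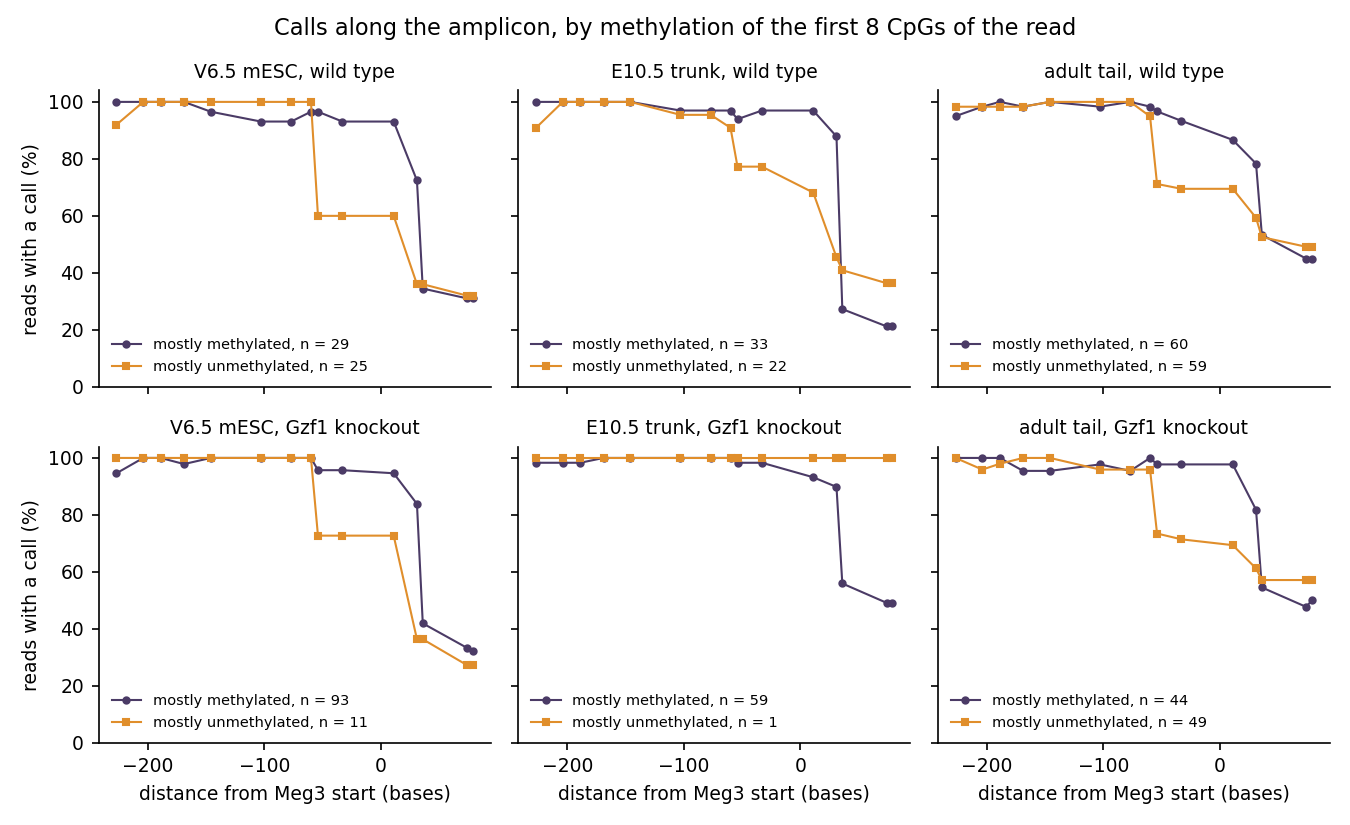
Percent of reads with a call at each CpG, against distance from the Meg3 start in bases, for reads that were mostly methylated (circles) or mostly unmethylated (squares) over their first 8 CpGs, in the 6 libraries. Mostly unmethylated reads drop before CpG 206, at 54 bases upstream, and mostly methylated reads drop between CpG 291 and CpG 296, while the knockout trunk has a single mostly unmethylated read. The first 8 CpGs are near 100% in part because a read needed 5 calls there.

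The levels along the amplicon thus rest on different sets of reads. In wild-type mESC CpG 200 was methylated in 29 of 47 reads that also had a call at CpG 206 and in 0 of 10 that had none, and the level went from 50.9% at CpG 200 to 61.7% at CpG 206. In wild-type tail the counts were 68 of 116 and 1 of 20, and the level went from 50.7% to 60.2%. Reads were also lost between CpG 271 and CpG 291. In wild-type trunk CpG 271 was methylated in 31 of 41 reads with a call at CpG 291 and in 1 of 8 without. In wild-type mESC the counts were 25 of 33 and 5 of 13. At the far side CpG 291 was methylated in all 22 reads of wild-type trunk that had no call at CpG 296 and in 12 of 19 that had one. The step from CpG 291 to CpG 296 was from 82.9% to 63.2% there.

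Levels over the first 8 CpGs alone, which most reads cover, were lower in the wild-type libraries and left the differences much as they were. The wild-type means were 52.3% in mESC, 55.0% in trunk and 48.9% in tail, and the knockout means 79.6%, 87.7% and 47.3%. The differences were 27.3 points in mESC (interval 14.1 to 40.5), 32.7 in trunk (20.8 to 44.7) and -1.53 in tail (-11.5 to 8.44). On reads with a call at CpG 339 alone, of which there were 16 to 65 per library, the differences were 27.7, 42.1 and -4.44 points.

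No trend from the promoter side to the gene side held up in any library. The mean of the first 8 CpGs minus that of the last 7 was -5.07 points in wild-type mESC, -6.46 in wild-type trunk and -4.91 in wild-type tail, and 0.563, -2.35 and -2.04 in the knockout libraries of the same sources. Each of the 6 intervals held 0. The widest ran from -16.7 to 6.60 points, in wild-type mESC. Intervals this wide cannot show that a trend is absent.

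CpGs on a read tended to share their state. In the wild-type libraries CpGs up to 30 bases apart had equal calls on 91.0% of reads in mESC, 91.3% in trunk and 90.5% in tail, where the levels of the CpGs alone would give 51.4%, 52.2% and 50.7%. At more than 200 bases the agreement was 72.6%, 69.1% and 69.6%, still above the 50.8%, 52.1% and 50.2% from levels alone. The tail library labelled Gzf1 knockout had nearly the wild-type values of tail, 90.2% at the shortest and 70.7% at the longest distances. These are descriptions over pairs of CpGs that share reads, with 16 to 155 calls behind a CpG of the wild-type libraries.

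In the knockout libraries of mESC and trunk, the levels alone gave most of the agreement. At up to 30 bases it was 85.4% in mESC, 15.3 points above the value from levels alone, and 88.1% in trunk, 6.18 points above it. The corresponding excess in wild type was 39.6 and 39.1 points. The room for an excess was not equal. Levels alone gave 70.1% in knockout mESC and 81.9% in knockout trunk, against 51.4% and 52.2% in wild type. A smaller excess is therefore not by itself a loss of shared state. Neighbouring calls on a read differed in 14.9% of pairs in knockout mESC against 7.64% in wild type, and in 11.9% against 10.2% in trunk. These shares were not tested.

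**Figure D5:**
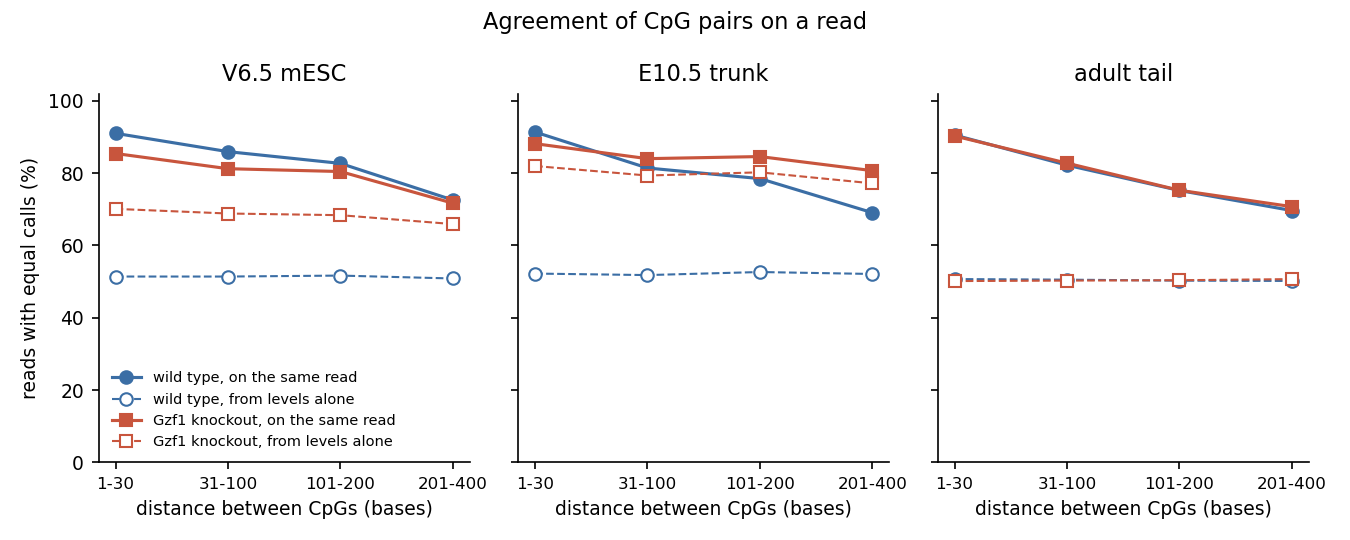
Percent of reads on which CpGs of a pair have equal calls (filled symbols, solid lines), averaged over pairs in 4 classes of distance in bases, and the value that the levels of the CpGs alone would give (open symbols, dashed lines), for wild-type (circles) and Gzf1 knockout (squares) libraries of the 3 sources. Agreement falls with distance in all wild-type libraries, from near 91% to near 70%, and the knockout trunk lies close to its dashed line, 6.18 points above it at the shortest distances.

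Agreement was lowest at the edges of the amplicon. Between CpG 33 and CpG 56 the calls were equal on 37 of 61 reads in the knockout trunk (60.7%) and on 82 of 105 in the tail library labelled Gzf1 knockout (78.1%), the lowest of the neighbouring pairs in each. In the other 4 libraries the lowest value was between CpG 296 and CpG 334, with 14 of 18 reads in wild-type mESC (where the pair of CpG 334 and CpG 339 was equal to it), 24 of 36 in knockout mESC, 9 of 16 in wild-type trunk and 52 of 65 in wild-type tail. The highest values were between CpGs of the promoter in 4 libraries, such as 112 of 116 reads between CpG 200 and CpG 206 in wild-type tail and 61 of 62 between CpG 71 and CpG 91 in the knockout trunk. The exceptions were wild-type trunk, with 19 of 19 reads between CpG 291 and CpG 296, and the tail library labelled Gzf1 knockout, with 73 of 74 between CpG 271 and CpG 291.

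Reads methylated at every call made up 25.9% of wild-type reads in mESC (Wilson interval 16.3 to 38.4), 24.1% in trunk (14.96 to 36.5) and 16.9% in tail (11.6 to 23.9). In the knockout libraries they made up 31.5%, 37.3% and 13.8%, well under the shares of mostly methylated reads. Reads without a methylated call made up 34.5%, 29.3% and 25.4% of wild-type reads. In the knockouts they were 8 of 111 reads in mESC, 1 of 67 in trunk and 22 of 109 in tail.

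The gaps in mostly methylated reads fell on particular CpGs. In these reads 90.9% to 94.3% of calls were methylated in the 6 libraries. CpG 33 was at 85.7% and 74.7% in wild-type and knockout mESC, at 75.8% and 62.7% in trunk and at 77.8% and 69.2% in tail. It was the lowest CpG with at least 10 calls in wild-type and knockout trunk and in the tail library labelled Gzf1 knockout, and tied with CpG 291 in wild-type mESC. In knockout mESC and wild-type tail CpG 334 was lower, at 70% and 75%. CpG 157 was unmethylated on 17 of 92 such reads in knockout mESC and on 9 of 62 in knockout trunk, against 1 of 27, 2 of 32 and 3 of 55 in the wild-type libraries and 2 of 40 in the tail library labelled Gzf1 knockout. The classes were cut from the same calls, so these values are given without a test.

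Stray methylation on mostly unmethylated reads was low. It made up 5 of 252 calls in wild-type mESC (1.98%), 8 of 126 in knockout mESC (6.35%), 12 of 239 in wild-type trunk (5.02%), 36 of 647 in wild-type tail (5.56%) and 36 of 560 in the tail library labelled Gzf1 knockout (6.43%). Among CpGs with 10 or more calls on such reads, the highest of tail was CpG 339 in wild type, with 4 of 26 calls, and CpG 71 in the other library, with 6 of 45. In mESC it was CpG 227 in wild type with 1 of 14, and in wild-type trunk CpG 271 with 3 of 14. The stray calls of wild-type trunk lay mainly on the gene side. There CpG 291 had 3 of 9, CpG 296 2 of 8, CpG 334 1 of 7 and CpG 339 2 of 7. CpG 227 had 1 of 16, and the CpGs from CpG 33 to CpG 206 had none. In knockout mESC CpG 71, CpG 91 and CpG 157 each had 1 methylated call of 11. With fewer calls there, CpG 206 had 1 of 8, CpG 291 and CpG 296 each 1 of 4, and CpG 334 and CpG 339 each 1 of 3. Knockout trunk had 1 mostly unmethylated read, too few to describe.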

How the data were processed

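Bisulfite-converted DNA was amplified by nested PCR at each locus, and the amplicons were read on nanopores, per the labels' protocols. Each deposited file holds the per-read CpG calls (methylated or not, top strand) of 1 library, with the position on the amplicon reference. The authors' calls came from the Bismark methylation extractor 0.22.3 per the file headers, while Bismark 0.24.2 and mm10 are named per the submitters' processing notes. The aligner, its settings and any filter on reads were not given in the sources used here. Conversion could not be checked, since only CpG calls were used.

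A CpG needed 10 calls in each library compared. Levels are percentages of calls, and library means weight CpGs equally, with linearised 95% intervals over reads as clusters. Single CpGs were compared with Fisher's exact test (two-sided), and p-values were adjusted by Benjamini and Hochberg's method within a pair of libraries. Differences between changes used a two-sided normal test on the same variances. Calls at positions other than the 15 CpGs made up 0.165% to 0.293% of a library. The procedure was tested on simulated reads with the real depths and missing calls (200 pairs per comparison): CpGs without a difference were called in 0.267% to 0.367% of cases, and 93.5% to 97% of intervals held the true difference. In these simulations all CpGs of a read moved together and PCR copies were not modelled. Missing calls did not depend on the methylation of a simulated read, while in the real reads they did.

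The CpGs named are those with the largest and smallest change per comparison and the extremes of level, agreement and class level per library. CpG 71 and CpG 206 are also named for their motifs. All 15 CpGs are given by value. The amplicon, the lists and the tests were chosen with earlier results of these data known. Software was Python 3.11.15, NumPy 2.4.6, SciPy 1.17.1 and Matplotlib 3.10.9.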

Additional observations from a re-analysis of the deposited data

Results flagged for a closer look

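The change of the Gtl2-DMR mean between Gzf1 knockout and wild type differed between sources by a direct test of the difference. It was 27.6 points larger in mESC than in tail (24.7 against -2.87) and 33.7 points larger in trunk than in tail (30.8 against -2.87), with adjusted p-values of 0.000967 and 3.01e-05 from a normal test on the variance between reads. Each change rests on 1 library per genotype, and the knockout library of tail has a title that names both genotypes. All 15 CpGs were higher by value in the knockout of mESC and of trunk, and 4 of 15 in that of tail.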

How the results depend on the processing

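Coverage minimums of 5 and 30 calls, a minimum of 10 points, pooled calls, CpGs called in at least 50% of the reads of every library (12 CpGs, 33 to 291), reads with calls at no fewer than 50% of the CpGs, other class bounds and adjustment over all amplicons of a source changed no direction and no side of the threshold of a mean, a class share or a difference between changes, where they applied. Under them 10 to 12 CpGs were called higher in mESC, 10 or 11 in trunk and 0 in tail, so single CpGs did cross. CpG 271 was called in mESC at a minimum of 10 points. The first 8 CpGs alone and reads called at CpG 339 alone, both chosen after seeing the data, changed no direction and no side for the means and the differences between sources. In all, 123 of 131 recomputed values kept their direction and side, or, for counts of CpGs, stayed within 1.5 times the reported count. Counting identical read patterns once altered mESC most. The mean difference was then 13.8 points, mostly methylated reads differed by 20.8 points (Fisher's exact test, adjusted p = 0.0586) and mostly unmethylated reads by -18.3 points (adjusted p = 0.0504), and 0 CpGs were called. Under it the Gtl2-DMR change minus that of another amplicon turned to 2.25 points for the IG-TRE in mESC and 2.27 for the IG-CGI in trunk, neither past the threshold before or after. A minimum of 30 points left 4 of the 11 CpGs called in mESC and 9 of the 11 in trunk. With a minimum of 30 calls, CpG 334 in trunk was not tested. The cause of these shifts was not tested. No paired analysis was possible because each group had 1 library, so no replicate could be left out either. Depth limits single CpGs most: the 16 calls at CpG 334 in wild-type trunk allow 14.2% to 55.6%.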

Other observations

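Reads of tail changed state along the molecule more often in a single step than reads of the other sources did by value. Reads with exactly 1 switch between methylated and unmethylated calls made up 22.5% of wild-type tail reads (32 of 142) and 23.9% in the tail library labelled Gzf1 knockout (26 of 109), against 11.7% to 16.4% in the 4 libraries of mESC and trunk. In tail 12 of the 32 and 12 of the 26 were methylated first, on the promoter side. In mESC 3 of 9 wild-type and 6 of 13 knockout reads with 1 switch were methylated first, and in trunk 1 of 7 and 1 of 11. These shares were not tested.

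Distinct call patterns made up 60.9% to 69.9% of the reads in the 6 libraries. The reads called at all 15 CpGs held 32 distinct patterns among 56 reads in wild-type tail and 12 among 17 reads in wild-type mESC. Calls missing inside a read, between its first and last call, numbered 1 to 13 per library, so nearly all missing calls lay after the last call of a read or before its first.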
